A study of Mus musculus with 4 samples.

Results

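Among the RNAs measured in mouse peritoneal exudate cells, 10 genes of the B cell receptor and of B lymphocytes were followed: Ighm, Ighd, Cd79a, Cd79b, Ms4a1, Cd22, Cd72, Blk, Spib and Pou2af1. They were chosen by name, with earlier results of these data known, as a read of the lymphocyte share of the exudate. A probe set, the group of oligonucleotides with which an Affymetrix array reads a transcript, was taken where the platform annotation gave it exactly 1 symbol and that symbol was 1 of these genes. All 10 had such a probe set, of 6137 genes named in this way, and 16 probe sets stood for them, 12 on the array type called A here and 4 on the array type called B. Cells of Cebpe-deficient mice (C/EBPε-/-) were compared with cells of wild-type mice (C/EBPε+/+). C/EBPε, the product of Cebpe, is a transcription factor of late granulocyte maturation. Both genotypes came from a cross of 129/SvEv with NIH Black Swiss mice, and 4 mice of each, aged 6 to 8 weeks, were given an intraperitoneal injection of thioglycollate broth (2 ml at 4%), a sterile irritant. The exudate was washed out 24 h later. Per the labels, lymphocytes made up 7 to 10% of the cells on stained cytospins (100 to 200 cells counted) whichever the genotype, beside neutrophils at about 60% and monocytes at about 30%. B cells were not counted apart from other lymphocytes. How the cells of the mice were combined is not given in the sources used here.

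A B cell recognises antigen with a membrane immunoglobulin, whose heavy chains of the mu and delta classes are encoded by Ighm and Ighd. The immunoglobulin itself has almost no cytoplasmic part, so the signal is passed on by the paired chains encoded by Cd79a and Cd79b, which are phosphorylated by kinases of the Src family such as the product of Blk. CD22 and CD72 are inhibitory partners of this receptor, and Ms4a1 encodes CD20. Spib, an ETS factor, and Pou2af1, the octamer coactivator also called OBF-1, act on transcription in B cells. The mouse peritoneal cavity is known for its resident B cells, many of them of the B-1 type.

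The 4 arrays were 1 per genotype and array type. The array types hold different probe sets, so they are not replicates of each other. No test was possible, no p-value is given, and no difference below has a replicate check. Values were deposited as linear array intensity, and 20.7% to 29.3% of those on each array were below 0. Signals are given after scaling the arrays of a type to a common trimmed mean, which multiplied them by 0.999 to 1.001. The floor, below which no ratio was taken, was the median signal of both arrays of a type, 1036 on A and 690.2 on B. A gene above the floor in both genotypes has a ratio, given as log2 of deficient over wild-type. A gene above it in 1 genotype has only a bound against the floor. The measurement error of 1 ratio was estimated from genes read by several probe sets, as an SD of 0.46 log2 units where the lower signal was under 3 times the floor and 0.32 where it was not. Since it comes from differences between probe sets on these 4 arrays, this error holds no spread between mice or between repeat arrays. It was not put on the bounds, so a fold given as "at least" takes the signal above the floor as read. No probe set had Cebpe as its symbol, so the genotype labels were not checked by that gene. The title of the deficient sample on B names the deficiency, while its RNA source description does not.

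The B cell genes were present in the exudate of both genotypes, and most differed little between them. In Cebpe-deficient and wild-type cells alike, 8 of the 10 genes were above the floor, and their log2 ratios lay between -0.56 for Pou2af1 and 0.48 for Ms4a1. Signal was lower in deficient cells for 5 of them and higher for 3. Their median log2 ratio was -0.24, or 84.6% of the wild-type signal, against a median of 0.01 over the 3132 genes with a ratio. Scaling the arrays to their bacterial hybridisation controls put the members' median at 0.0071 and that of all genes at 0.21. The remaining genes, Cd22 and Cd72, passed the floor in wild-type cells alone. In bulk RNA fewer cells of a type and less RNA per cell cannot be told apart, and this holds for every gene below.

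Among the antigen receptor chains, Ighm was read by 5 probe sets. The brightest, on A, gave 18899 in deficient cells, against 26766 in wild-type cells. On B the brightest gave 12583 in deficient cells, against 17742 in wild-type cells. These readings from separate arrays were close in ratio, with log2 values of -0.50 on A and -0.50 on B. A dimmer Ighm probe set on B read 2209 in deficient cells and 2844 in wild-type cells, a log2 ratio of -0.36. All 3 were therefore lower in deficient cells by more than 1 and less than 2 SD of the measurement error. The probe set on A and the dimmer one on B carry the suffix for probes shared within a gene family, so other immunoglobulin transcripts may contribute to them. The 2 remaining Ighm probe sets, both on A, were below the floor in both genotypes, with signals of -854 and -863 in deficient cells and -234 and -1297 in wild-type cells. They add nothing on the direction. When the arrays were given equal medians, the brightest Ighm reading relative to the floor was the one on B, at -0.67.

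Ighd, whose product marks mature B cells, did not share the direction of Ighm. It read 4199 in deficient cells, against 3716 in wild-type cells. Its log2 ratio of 0.18 was within 1 SD of the measurement error. On the same arrays Ighm was lower and Ighd slightly higher in deficient cells, and equal medians brought the Ighd ratio to 0.00. Whether the balance of the mu and delta classes differed between the genotypes was not tested, since 1 array per genotype gives no spread for it.

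Of the signalling pair, Cd79a read 9089 in deficient cells and 11774 in wild-type cells on B, a log2 ratio of -0.37 with a measurement error of 0.32. Cd79b, its partner, read 6127 in deficient cells and 6614 in wild-type cells on A, a log2 ratio of -0.11. The products of these genes work as a dimer, and both signals were lower in deficient cells, Cd79b by less than the measurement error. With bacterial control scaling Cd79b turned slightly above 0, to 0.05, and Cd79a stood at -0.04.

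**Figure D1:**
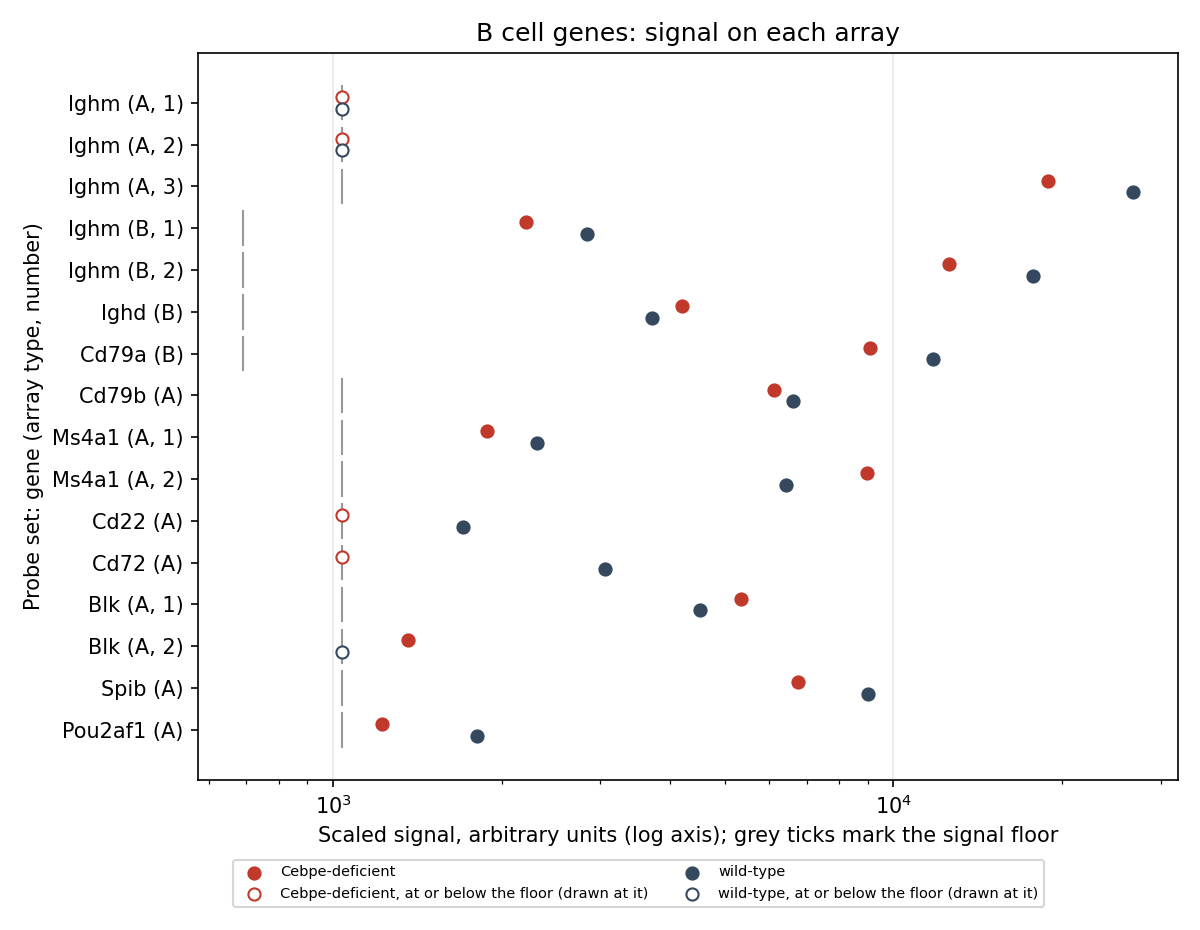
Scaled signal (horizontal log axis, arbitrary units) of each of the 16 probe sets in Cebpe-deficient and wild-type cells, with the signal floor of its array type as a grey tick; numbers tell apart probe sets of a gene on the same array type. Ighm reads 18899 in deficient and 26766 in wild-type cells on A, and Cd22 and Cd72 pass the floor in wild-type cells alone; open points are signals at or below the floor, drawn at it.

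The surface proteins held the widest differences. Cd72, whose product is an inhibitory C-type lectin of B cells, read 616 in deficient cells, below the floor, against 3063 in wild-type cells. Its signal was thus at least 2.95-fold lower in deficient cells, a log2 bound of -1.56. Cd22, whose product is an inhibitory lectin that binds sialic acid, read 284 in deficient cells, also below the floor, against 1709 in wild-type cells. This gave a bound of at least 1.65-fold lower, or -0.72 on the log2 scale. Each gene had 1 probe set, so neither has a second reading. With the floor at the 30th percentile (256 on A) both deficient signals counted as measured, but they lie in the range of unmeasured probe sets, so the values stand as bounds and no fold is given. With the floor at the 70th percentile (2559 on A), Cd22 was below it in both genotypes and the log2 bound of Cd72 shrank to -0.26.

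Ms4a1, a B cell surface gene whose product is the target of anti-CD20 antibodies, gave opposite directions by its probe sets. The brighter read 8972 in deficient cells and 6429 in wild-type cells, a log2 ratio of 0.48. The dimmer read 1884 in deficient cells and 2314 in wild-type cells, a log2 ratio of -0.30 with a measurement error of 0.46. Their mean was 0.09, so the direction of Ms4a1 depended on which probe set was read. Both were on A, and the 3 surface genes were all read on that array type.

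The promoters of Cd22 and Cd72, which passed the floor in wild-type cells alone, are shown for their sequence context. They run from 250 bases before to 50 bases after the annotated start, in RefSeq's annotation of build GRCm38.p6, on the minus strand at chr7:30878979-30879278 for Cd22 and chr4:43454577-43454876 for Cd72. RefSeq promoters were matched for 5 of the 10 members, the others being those of Cd79a, Spib and Pou2af1. Capitals mark, in Cd22, a match to the palindrome known for early B cell factor, TCCC and GGGA with a pair of unspecified bases between them, and, in Cd72, a match to GAGGAAGT on the opposite strand, a sequence of the type bound by ETS factors such as PU.1 and Spi-B.
Cd22: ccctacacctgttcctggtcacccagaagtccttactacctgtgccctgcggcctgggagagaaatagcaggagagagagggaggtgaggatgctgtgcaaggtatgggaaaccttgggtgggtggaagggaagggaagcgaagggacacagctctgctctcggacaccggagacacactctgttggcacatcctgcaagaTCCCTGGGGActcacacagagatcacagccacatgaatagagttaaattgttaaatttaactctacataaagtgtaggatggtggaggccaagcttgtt
Cd72: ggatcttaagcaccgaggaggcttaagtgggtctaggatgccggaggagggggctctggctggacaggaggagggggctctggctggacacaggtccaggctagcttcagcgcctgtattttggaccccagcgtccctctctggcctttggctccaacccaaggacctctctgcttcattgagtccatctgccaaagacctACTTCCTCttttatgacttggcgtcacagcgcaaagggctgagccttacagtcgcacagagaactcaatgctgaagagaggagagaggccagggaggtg
Both matches begin at position -49 from the annotated start. Searched on both strands, the palindrome was in 0.904% of 32851 RefSeq promoters of this length and GAGGAAGT in 3.2%, and each was in 1 of the 5 member promoters. The octamer ATGCAAAT, the element through which the product of Pou2af1 is known to act, was in 1.74% of all promoters and in 0 of these 5. A match is a description of letters and not a measured binding site.

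Blk, the Src-family kinase of the B lineage, was slightly higher in deficient cells by both probe sets. The brighter read 5352 in deficient cells and 4520 in wild-type cells, a log2 ratio of 0.24, which is less than the measurement error of 0.32. The dimmer read 1360 in deficient cells, against 1015 in wild-type cells, just under the floor, and gave a bound of at least 1.31-fold higher.

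Both transcription factor genes were lower in deficient cells. Spib read 6770 in deficient cells and 8999 in wild-type cells, a log2 ratio of -0.41 with a measurement error of 0.32. Pou2af1 read 1223 in deficient cells and 1807 in wild-type cells, close to the floor, with a log2 ratio of -0.56 and a measurement error of 0.46. These differences were larger than 1 SD of the measurement error and smaller than 2. Spib is also known for its expression in plasmacytoid dendritic cells. Pou2af1 fell below the floor in both genotypes when the floor was set at the 70th percentile.

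**Figure D2:**
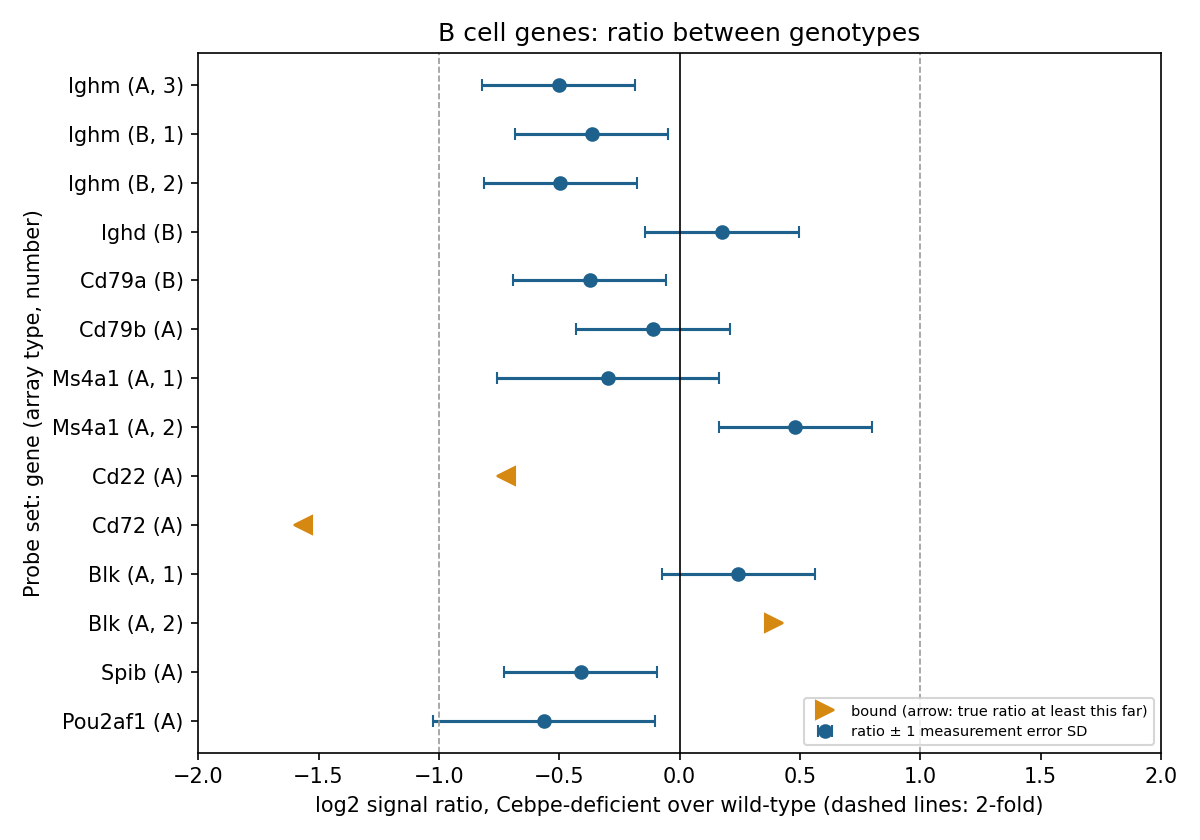
Log2 signal ratio (horizontal axis, Cebpe-deficient over wild-type) for the 14 member probe sets above the floor on at least 1 array. Points with bars are ratios ± 1 SD of the measurement error. Triangles are bounds against the floor, pointing away from 0 and drawn without a measurement error, and dashed lines mark 2-fold. The 11 ratios lie between -0.56 and 0.48, and Cd72 has the bound farthest from 0, at -1.56.

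The members' counts past a fold were set against those of all genes. Of the 8 with a ratio, 0 were higher by 2-fold or more and 0 were lower, where 3.03% of the 3132 genes with a ratio were higher and 3.67% lower. At 1.5-fold 0 of the 8 were past the threshold in either direction, against 23.2% of all genes. With 8 genes such shares would leave few or none past 2-fold, so that count shows little. The 1.5-fold count also rests on 8 genes. Most of them had signals over 3 times the floor, where the measurement error is smaller, so it shows little as well. All 11 ratios of single probe sets were within 2 SD of the measurement error, and 4 were within 1 SD. Of the 2 bounds, Cd72 was past 2-fold, where 17.8% of the 314 genes that passed the floor in wild-type cells alone were lower by a bound of that size. A bound of 1.5-fold or more was met by both Cd22 and Cd72 and by 37.6% of those genes, and one of 3-fold by 0 of the members and 5.73% of the genes. With the floor at the 30th percentile, 2 of 10 members were lower by 2-fold or more, again Cd22 and Cd72, against 7.25% of 4273 genes, but this setting counts signals that the main floor treats as unmeasured. With both genes at their bound, the median of all 10 was -0.39.

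Other genes of the B cell receptor pathway were read from lists of surface proteins, signalling proteins and transcription factors. Of 14 named signalling genes, 11 had a ratio, with a median log2 of 0.42, 7 above 0 and 4 below, and 0 were past 2-fold in either direction. Prkcb, the protein kinase C that links the receptor to NF-κB, was the highest at 0.76, which bacterial control scaling put past 2-fold at 1.09, and Cd81, a widely expressed tetraspanin, the lowest at -0.60. Many genes of this list, among them Prkcb, also work in myeloid cells, which made up most of the exudate. Their median was above 0 under every scaling tried, and it was 0.24 with the floor at the 30th percentile.

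Of 14 named B cell surface genes outside the members, 7 had a ratio, 5 above 0 and 2 below, with a median log2 of 0.18 that was -0.01 on B alone. Cd37, a tetraspanin abundant on B cells and also present on other leukocytes, read 18809 in deficient cells and 8496 in wild-type cells, 2.21-fold higher, and was the only gene of the list past 2-fold. Named after their values were seen, Cr2 (complement receptor) and Cxcr5 (the follicular homing receptor) both stood at 0.68. Named likewise, Ltb (lymphotoxin beta) stood at -0.72 and Ly6d (a B lineage marker) at -0.71, so genes of mature B cells lay on both sides of 0. In wild-type cells Cr2 read 1255 on A and Cxcr5 832 on B, both close to the floor. The other Cr2 probe sets were below the floor in both genotypes. Of 14 named transcription factors of the B lineage, 7 had a ratio (5 above 0, median 0.16) and 3 a bound, all of these higher in deficient cells. Mef2c, which B cells and myeloid cells both use, was at least 2.09-fold higher in deficient cells by 1 probe set, while its other was below the floor in both genotypes. With the floor at the 70th percentile neither was above it. For comparison, 20.1% of the 303 genes that passed the floor in deficient cells alone had a bound that large. Pax5, the factor that defines the B lineage, read 1043 in deficient cells and 574 in wild-type cells, at least 1.51-fold higher. Thus Pax5 and Pou2af1, both B lineage regulators with signals near the floor, lay on opposite sides of 0. Ebf1, another defining factor, did not reach the floor in either genotype.

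The wider immunoglobulin family was mixed in direction. Of 13 named genes, which include Ighm and Ighd, 7 had a ratio, 5 above 0 and 2 below, with a median log2 of 0.18. Under equal medians that median was 0.0042. It was -0.41 on A alone, where the 2 genes with a ratio were Ighm and Iglc1, a lambda light chain at -0.32. The heavy chain variable gene Ighv14-3 read 2166 in deficient cells and 1063 in wild-type cells, 2.04-fold higher, the only one past 2-fold. That call was lost under equal medians (0.85), quantile (0.91) and loess (0.88) scaling, while the 70th percentile floor left only a bound of 0.08. The single bound of the list was that of another variable gene, Ighv2-4, at least 1.49-fold lower in deficient cells. Whether its probe set also reads related variable genes was not tested. Jchain and Igha, taken as markers of secretion, were below the floor. Ighg2c, a heavy chain gene of the gamma class, was above it by 1 of 2 probe sets. That probe set read 3643 in deficient cells and 3240 in wild-type cells, a log2 ratio of 0.17. Jchain, the joining chain of secreted polymers, read 631 in deficient cells and 403 in wild-type cells, and Igha, the heavy chain of the alpha class, 643 in deficient cells and 708 in wild-type cells. Of 6 named plasma cell genes 5 were below the floor in both genotypes, and Xbp1, which many secretory cells use, was measured at 0.27.

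Markers of other lymphocytes were mostly below the floor, while none of the 10 members was below it in both genotypes. Other B cell lists did not share this. Below the floor in both genotypes were 28.6% of the named B cell surface genes and 28.6% of the B lineage transcription factors. Among the receptor signalling genes the share was 21.4%. Of 15 named T cell genes, 10 were below the floor in both genotypes, or 66.7%, against 38.9% of all named genes. These included Cd3d, Cd3g, Cd4, Cd8a, Zap70 and Thy1, taken here as T cell markers. Cd3e, another chain of the T cell receptor complex, read 921 in deficient cells and 1901 in wild-type cells, at least 1.83-fold lower. The 3 T cell genes with a ratio lay between -0.20 for Cd247 and -0.01 for Cd7, and with bacterial control scaling their median moved from -0.18 to 0.14. Of 8 named NK cell genes, 7 were below the floor and Gzma, a granzyme, stood at -0.66. The summed signal of the T cell list, with genes below the floor taken at it, was 7495 in deficient and 8538 in wild-type cells on A and 6677 in deficient and 6780 in wild-type cells on B, with 6 and 9 genes. That of the 10 members was 49415 in deficient and 59907 in wild-type cells on A (8 genes) and 13288 in deficient and 15490 in wild-type cells on B (2 genes). Most of the difference on A was that of the brightest Ighm probe set, which other immunoglobulin transcripts may feed. The sum on B holds Ighd and Cd79a, whose ratios had opposite signs and stood at 0.51 and -0.04 under bacterial control scaling, so it gives no settled direction.

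**Figure D3:**
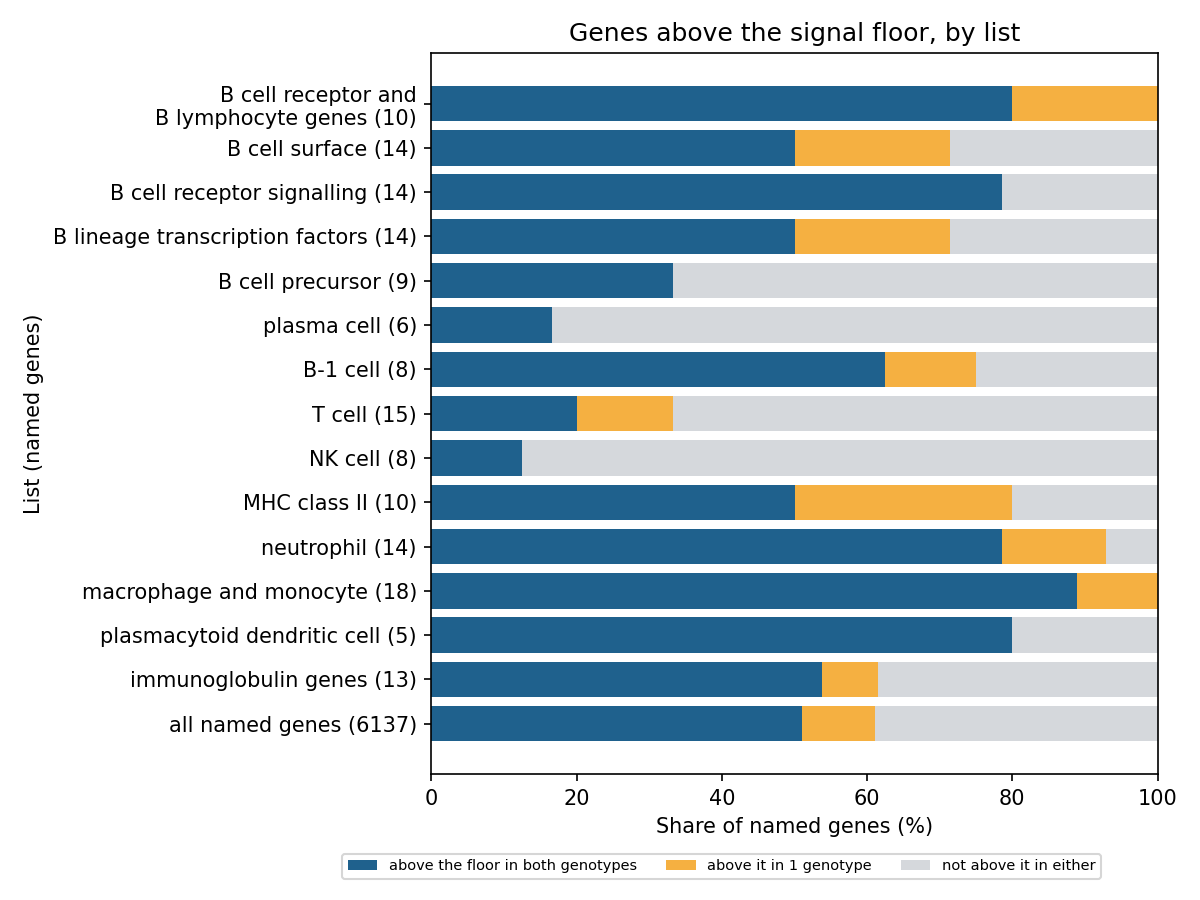
Share of the named genes of each list (horizontal axis, %) that was above the signal floor in both genotypes, in 1 genotype or in neither, with the number of named genes in brackets. None of the 10 members is below the floor in both genotypes, against 28.6% of the B cell surface list, 66.7% of the T cell list and 38.9% of all named genes.

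Lists for particular kinds of B cell gave few readings. Of 8 named B-1 cell genes, 5 had a ratio, 4 below 0 and 1 above, with a median log2 of -0.15 that was 0.13 under bacterial control scaling. Cd9, a tetraspanin that macrophages and granulocytes also carry, was the lowest at -0.89, Ptpn22, a lymphoid phosphatase, the highest at 0.03, and Cd5, the marker of B-1a cells, did not reach the floor in either genotype. Ahnak and Lgals1, also of this list, read 55408 and 69712 in wild-type cells, against 26766 for the brightest Ighm probe set. Whether the list reads B-1 cells in this exudate was not tested. Of 9 named genes of B cell precursors, 6 were below the floor, among them the recombinase genes Rag1 and Rag2. Vpreb1, part of the surrogate light chain, stood at 0.87 and Kit, a receptor of progenitors and mast cells, at -0.58, both close to the floor.

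The lists that B cells share with other cells, and those of the myeloid cells, are given beside the members. MHC class II genes, expressed by B cells, macrophages and dendritic cells, had a median log2 of -0.27 (5 of 5 below 0), the lowest being H2-Ab1 at -0.54 and the highest H2-DMb1 close to 0, and a median of 0.06 under bacterial control scaling. Quantile and loess scaling gave -0.10 and -0.09 for that list, and 0 of its genes were past 2-fold. The plasmacytoid dendritic cell list had 4 of 4 ratios below 0, from -0.41 for Spib, itself 1 of the 4, to -0.20 for Irf7. The median of this list was -0.30, and -0.06 under bacterial control scaling. Any part of plasmacytoid dendritic cells in the lower Spib signal was not tested. The neutrophil list had a median of -0.52 (8 of 11 below 0), with Il1r2 (-2.40), Ngp, Ly6g and Csf3r lower by 2-fold or more and Cxcr2 lower by a bound of that size. The neutrophil markers S100a8 and S100a9 stood nearer to 0, at -0.08 and -0.24. The 3 genes above 0 were Mpo (0.36), Cxcr4 (0.22) and Elane (0.11), so the list did not move as a whole. Bacterial control scaling left the bound of Cxcr2 at -0.96, while at the 70th percentile floor Ngp and Ly6g had only bounds, of -0.58 and -0.94. Il1r2, which read 902 in deficient cells, close to the floor of B, also had only a bound there, of -1.22. Monocyte and macrophage genes had a median of -0.52 as well (11 of 16 below 0), with Mrc1 (-2.30) and Cd14 lower and Apoe (2.21) higher by 2-fold or more. The macrophage markers lay on both sides of 0, with Csf1r at 0.84 and Cd68 at 0.29, and Adgre1 at -0.52 and Lyz2 at -0.43. Both Apoe probe sets carry the suffix for probes shared within a gene family. The call of Cd14 (-1.03) was lost under quantile (-0.82), loess (-0.84) and bacterial control (-0.70) scaling. The summed signal of the neutrophil list was 107316 in deficient and 137967 in wild-type cells on A and 50135 in deficient and 73533 in wild-type cells on B. On A alone the medians were -0.26 for the members, -0.16 for the neutrophil list and -0.07 for the monocyte and macrophage list, so the order of these lists depended on the array type. No difference between lists was tested.

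**Figure D4:**
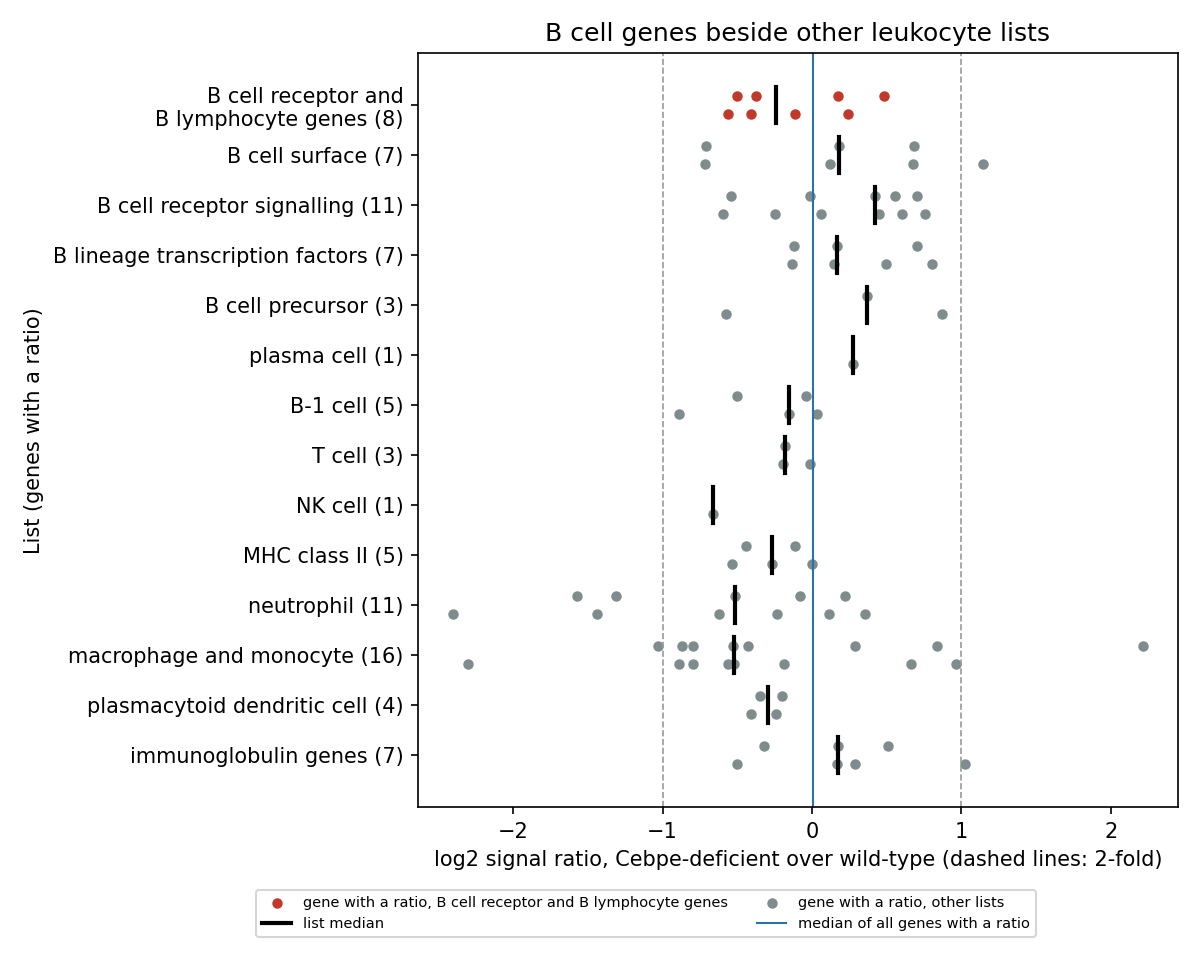
Log2 signal ratio (horizontal axis, Cebpe-deficient over wild-type) of each gene with a ratio, by list, with the list median as a black bar, the median of all genes as a blue line and 2-fold as dashed lines; points are spread vertically only to be seen. The 8 B cell genes lie between -0.56 and 0.48 with a median of -0.24, inside the 2-fold lines, while the neutrophil list reaches -2.40.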

How the data were processed

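Per the labels, total RNA of peritoneal exudate cells was hybridised to Affymetrix arrays. The values the authors deposited are whole-number intensity readings, 1 per probe set. Which software, background correction or scaling made them is not stated in the labels or file headers. Groups were taken from the sample titles.

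Both arrays of a type were scaled to the same trimmed mean, taken without control probe sets and without 2% in each tail. The floor was the 50th percentile of both arrays. Where several probe sets of a gene were measured, the one brightest in units of its floor was used. Gene symbols came from the platform annotation: of 13069 probe sets 7542 had 1 symbol, 224 several and 5303 none. Of the 6137 named genes, 3132 had a ratio, 617 a bound and 2388 neither. Measurement error was pooled over 424 genes with several measured probe sets.

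Named were all members and, from each other list, genes past 2-fold, or else the highest and lowest, besides defining markers of a cell type. Genes named beyond these were chosen after their values were seen. The members and lists were chosen with earlier results of these data known.

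Also tried were bacterial control, loess (span 0.3), quantile and equal-median scaling, unscaled values, floors at the 30th and 70th percentile, the mean over probe sets, no probe sets suffixed _f, _g, _r or _i, 1 array type alone, and 1.5-fold and 3-fold. The ratio step was tested on simulated arrays. The number of arrays limits the precision. Scripts ran in Python 3.11.15 with scipy 1.17.1 for trimmed means, statsmodels 0.14.6 for loess, pandas 2.3.3 and numpy 2.4.6. Figures were drawn with matplotlib 3.10.9.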

Additional observations from a re-analysis of the deposited data

How the results depend on the processing

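The median log2 ratio of the members lay between -0.39 and 0.0071 over 13 alternatives. It was -0.39 with the floor at the 30th percentile or with bounded genes at their bound, which brings Cd22 and Cd72 into it. Bacterial control scaling gave 0.0071, the only value above 0. That scaling moved the median of all probe sets to 0.18 on A and 0.34 on B, and relative to all genes the members' median stayed at -0.20. With the floor at the 30th percentile, 2 members had ratios lower by 2-fold or more and 0 had a bound that low. Bounds past the threshold numbered 0 with the floor at the 70th percentile, on B alone and at 3-fold, and 2 at 1.5-fold. Of 99 recomputed member ratios and bounds, 93 stayed within the measurement error of their value and 1, that of Cd79b, turned sign. Many of the 99 could not change. A ratio from a single measured probe set is the same under another floor that both signals pass, or on its array type alone. The count of 93 therefore says little about stability. Equal medians moved the median of all probe sets to 0.08 on A and -0.14 on B. No paired analysis was possible because each genotype had 1 array per type and the labels give no replicate numbers, and leaving out an array leaves no comparison. Signal near the floor limits Pou2af1, Cd22, Cd72 and the dimmer probe sets of Ms4a1 and Blk.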
